A study of Homo sapiens with 36 samples.

Results

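B2B (BEAS-2B) is an immortalised, non-cancerous human bronchial epithelial line, and its Jun ChIP-seq list held 45047 peaks on chromosomes 1 to 22, X and Y. The subject here is 20502 of these peaks, 45.5% of the list, at which Jun was called away from start sites and without its relatives. They were selected on the peak calls themselves by 3 conditions. The peak lay more than 1 kb from every annotated start site. It overlapped no B2B JunB or JunD peak. No A549 peak of Jun, JunB or JunD lay within 1 kb. A549 is a human lung adenocarcinoma line. These regions are called Jun-alone sites, and "alone" refers to the lists of Jun-family peaks only. The series holds 36 libraries in 18 groups of 2, and 2 of those groups are input chromatin that was not analysed here. The other groups gave 16 peak lists. A549 and B2B each have Jun, JunB, JunD, H3K27ac, Med1, RNA polymerase II (pol II) and H3K4me3, and B2B also has CTCF and Rad21. No treatment is named for these groups. The replicates were merged before peaks were called, so no value below has a replicate error. Intervals (95%) cover the counting of sites only, and neighbouring sites are not independent.

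Jun, JunB and JunD are basic leucine zipper proteins. They pair with each other, with Fos proteins or with ATF proteins to form the dimers known as AP-1, which read the 7-base element TGACTCA and close relatives of it. In epithelial cells AP-1 acts largely from distal enhancers and answers growth factor, stress and adhesion signals. TEAD proteins, which carry YAP and TAZ to DNA, and RUNX proteins are known to share enhancers with AP-1.

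A further 2 kinds of distal Jun peak were kept for comparison. Trio sites (757) overlapped both a JunB and a JunD peak in B2B and had no A549 Jun-family peak within 1 kb. Shared Jun-alone sites (10264) had no JunB or JunD overlap in B2B but did have an A549 Jun-family peak within 1 kb. Of the 38863 distal B2B Jun peaks, the Jun-alone sites made up 52.8%.

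The sequences below show what lay under strong Jun-alone summits. Each is the hg38 plus strand from 50 bases before to 50 bases after the summit, at the 2 most enriched sites of each kind outside exons. Capitals mark every match, on either strand, to AP-1 (TGACTCA or TGAGTCA), to the cyclic AMP response element or CRE (TGACGTCA), to 2 variants of AP-1 that differ from it at a single base (TGAATCA and TGACTAA), to TEAD (ACATTCC or GCATTCC) or to RUNX (AACCACA). These patterns do not contain each other. The first sites carry AP-1 and no other of these motifs. The upper of them lies in an intron of RBPJ, which encodes the DNA-binding effector of Notch signalling, and the lower in an intron of MPP7, a polarity protein. Their Jun fold enrichments were 36.5 and 32.3.

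chr4:26326915-26327015: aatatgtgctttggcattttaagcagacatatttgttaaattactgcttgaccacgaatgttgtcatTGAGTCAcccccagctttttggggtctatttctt
chr10:28331952-28332052: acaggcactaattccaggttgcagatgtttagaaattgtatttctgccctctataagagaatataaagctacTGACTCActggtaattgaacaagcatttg

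Another 2 sites carry AP-1 together with TEAD. The first, with a Jun fold enrichment of 25.8, is intergenic, 20.6 kb from a start of LAYN (layilin, a hyaluronan receptor). The second, at 22.6, lies in introns of overlapping genes that include IPCEF1.

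chr11:111562146-111562246: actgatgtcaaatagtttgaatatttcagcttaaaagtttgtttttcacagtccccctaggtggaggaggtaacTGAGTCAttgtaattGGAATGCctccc
chr6:154239510-154239610: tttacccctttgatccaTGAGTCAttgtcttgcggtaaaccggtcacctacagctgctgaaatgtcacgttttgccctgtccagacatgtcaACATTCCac

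A further 2 sites carry TEAD and, within the window shown, neither AP-1, CRE nor an AP-1 variant. The first is intergenic, 39.7 kb from a start of PPP2R2B, and had a Jun fold enrichment of 43.1. Its peak held AP-1 outside the window. The second is in an intron of NPR3, a natriuretic peptide receptor, at 42.9.

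chr5:146560629-146560729: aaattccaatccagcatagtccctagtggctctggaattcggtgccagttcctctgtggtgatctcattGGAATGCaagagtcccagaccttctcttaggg
chr5:32692572-32692672: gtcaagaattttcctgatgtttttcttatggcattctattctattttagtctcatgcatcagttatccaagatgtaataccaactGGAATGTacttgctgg

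The AP-1 variants are shown at an intergenic site 420 kb from a start of NR2F1, with a Jun fold enrichment of 41.1, and in an intron of NKAIN2, at 36.0.

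chr5:93163065-93163165: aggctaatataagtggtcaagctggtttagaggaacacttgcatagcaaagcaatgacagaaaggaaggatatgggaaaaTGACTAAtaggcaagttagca
chr6:124676182-124676282: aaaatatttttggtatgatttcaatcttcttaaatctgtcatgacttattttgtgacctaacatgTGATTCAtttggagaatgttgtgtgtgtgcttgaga

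CRE is shown in introns of SIK2, a kinase of CREB coactivators, at 32.3, and of SERTAD2, at 29.1.

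chr11:111694953-111695053: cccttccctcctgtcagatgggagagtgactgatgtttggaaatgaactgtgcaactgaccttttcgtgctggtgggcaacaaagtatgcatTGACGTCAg
chr2:64730624-64730724: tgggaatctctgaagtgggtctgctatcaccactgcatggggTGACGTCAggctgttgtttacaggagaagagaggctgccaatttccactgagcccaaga

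The most enriched sites shown hold none of these motifs in the window. Both are intergenic, 108 kb from a start of ARSJ with a Jun fold enrichment of 49.4 and 153 kb from a start of EDIL3 with 48.5.

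chr4:114087702-114087802: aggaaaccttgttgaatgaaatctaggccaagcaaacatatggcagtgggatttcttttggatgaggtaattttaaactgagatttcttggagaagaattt
chr5:83925349-83925449: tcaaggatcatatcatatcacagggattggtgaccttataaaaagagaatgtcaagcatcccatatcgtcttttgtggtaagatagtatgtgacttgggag

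The Jun enrichment of the Jun-alone sites was modest. Their median fold enrichment over the peak caller's local background was 7.39 (10th to 90th percentile 5.08 to 14.9), against 27.4 at trio sites and 8.48 at shared Jun-alone sites. Median widths were 236, 477 and 257 bp. These values came with the choice of members and are a description only. The number of reads at the summit was solved from fold enrichment and p-value, on the assumption that the caller added 1 to both pileup and background and took the upper tail of a Poisson distribution. It gave whole numbers, within 0.05 reads, at 100% of 44935 B2B Jun peaks. In those reads the median Jun-alone summit held 18 (10th to 90th percentile 11 to 39), the median trio summit 68 and the median shared summit 24. The lowest pileup called was 7 reads for Jun, 11 for JunB and 10 for JunD. The B2B JunB and JunD lists are also short, with 8563 and 8597 peaks, and each target has its own antibody. A missing JunB or JunD call is therefore not a measurement that the protein was absent. When the B2B Jun list was shortened to the length of the JunB list, 964 Jun-alone sites were left.

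Values on either side of the rule's limits were close for distance and apart for overlap. Sites whose nearest A549 Jun-family peak was up to 500 bp too close to qualify (532) and members up to 500 bp beyond the limit (476) had median Jun fold enrichments of 6.75 and 7.002. For the limit on start sites the same zones (726 and 714) had 6.93 and 7.096. Peaks that overlapped JunB or JunD but were otherwise eligible (2363, outside) had 19.9, and members with a JunB or JunD peak within 500 bp (173) had 6.70. Most members were far from any such limit. The nearest A549 Jun-family peak lay at a median of 23.5 kb, and 14.5% of members had one within 5 kb. The nearest B2B JunB or JunD peak lay at a median of 56.0 kb.

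The canonical AP-1 motif was the leading sequence of the Jun-alone sites, but most sites did not hold it close to the summit. AP-1 was present within 50 bp of the summit at 28.9% of them (5933 of 20502), against 1.71% of windows of the same size 2 kb to either side. The difference was 27.2 percentage points (Newcombe 95% interval 26.6 to 27.9). Over all distal B2B Jun peaks the share was 39.9%. Trio sites held AP-1 at 53.2% and shared Jun-alone sites at 46.7%. Jun-alone sites thus lay 24.3 points below trio sites (difference -24.3, interval -27.9 to -20.7) and below shared Jun-alone sites as well (difference -17.8, interval -18.9 to -16.6). Limited to a Jun fold enrichment of 15 to 30, the shares were 20.8% of 1909 Jun-alone sites, 63.0% of 414 trio sites and 39.7% of 1459 shared sites. Median Jun fold enrichments in that band were 18.0, 22.8 and 18.4, so trio sites were not fully matched. Where present, the motif sat at a median of 17 bp from the summit, and 69.1% of the motif-bearing sites had it within 25 bp. At 28.1% of Jun-alone sites there was exactly 1 copy, and at 0.795% there were 2 or more, against 3.42% of shared Jun-alone sites with 2 or more.

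The bases beside the motif hardly separated the classes. Read as TGACTCA, the base before it was A in 41.5% of 6049 motifs at Jun-alone sites, 48.1% of 416 at trio sites and 42.4% of 5121 at shared Jun-alone sites. A T stood there in 6.20%, 3.37% and 5.04%. The base after it was T in 43.4%, 40.9% and 42.6%. The median GC content of the windows was 42.6%, 44.6% and 43.6%.

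Sites without AP-1 carried a recognisable set of other words. Among 14569 such sites, all 7-base words were ranked by how much more often they occurred near summits than in the flanks (at least 50 summit windows, both strands). The first 3 words contain a CG, namely CGATGAC (8.55 times), ACGTCAT (8.20 times) and GACGTCA (7.15 times). All 3 overlap CRE in their letters, CGATGAC only through TGAC at its end, which also begins AP-1. They were rare, in 0.645% to 1.43% of sites. More common were TGAATCA, at 11.2% of these sites against 1.66% of their flanks, and TGACTAA, at 7.02% against 1.12%. These are the single-base variants of AP-1. ACATTCC was found at 10.2% against 1.60%, and GCATTCC at 7.27% against 1.25%, which are the TEAD words. In sites with AP-1, all 10 leading words overlap the motif in their letters. CGATGAC, at 0.843% against 0.0590%, does so through TGAC at its end.

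TEAD and CRE, met in this ranking, were then counted in every class, as a description. So were the words of RUNX, FOX, GATA, ETS and SP and KLF factors, which were not among its 10 leading words. TEAD was present within 50 bp of the summit at 14.0% of Jun-alone sites and 2.77% of their flanks. It was present at 18.4% of trio sites, 9.20% of shared Jun-alone sites and 12.8% of all distal B2B Jun peaks. Over all sites of each class, Jun-alone sites therefore lay between trio and shared sites for TEAD, although they lay below both for AP-1. At a Jun fold enrichment of at least 20 the TEAD shares were close. They were 19.3% of Jun-alone sites, 20.5% of trio sites and 19.4% of shared sites. Over all sites, RUNX had the same order as TEAD, at 6.32% of Jun-alone sites (flanks 1.98%), 9.91% of trio sites and 2.98% of shared sites. Without matching for Jun enrichment, both classes without an A549 Jun-family peak nearby thus held more TEAD and RUNX words than the class with one. FOX (TGTTTAC), read by forkhead factors, had the opposite order. It was at 1.82% of Jun-alone sites (flanks 1.57%), 1.06% of trio sites and 3.87% of shared sites. The GATA-factor word AGATAAG stood at 1.41% of Jun-alone sites and 1.52% of flanks. The ETS-factor word CCGGAAG stood at 0.390% and 0.259%. The word GGGCGGG, read by SP and KLF proteins, stood at 0.566% and 0.476%. CRE was at 0.502% of Jun-alone sites and 0.0268% of flanks.

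**Figure D1:**
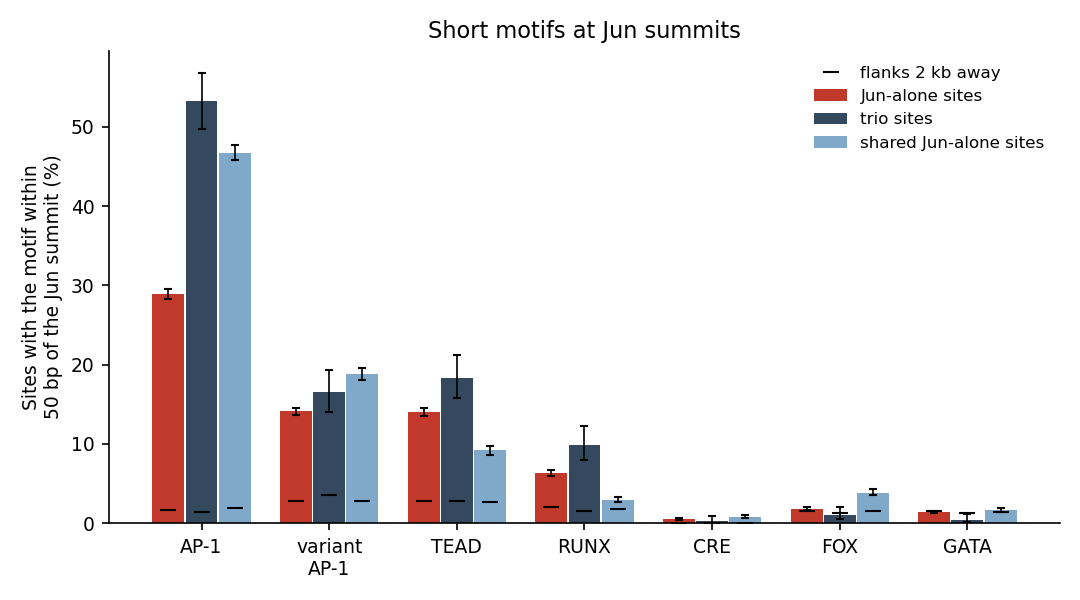
Share of sites (%, vertical axis) with each motif within 50 bp of the Jun summit in Jun-alone, trio and shared Jun-alone sites, with Wilson 95% intervals as error bars and the share in flanking windows 2 kb away as black dashes. AP-1 is lowest in Jun-alone sites (28.9%), whereas TEAD and RUNX there lie between trio and shared sites. All sites of each class are counted, without matching for Jun enrichment.

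AP-1 and TEAD rarely occurred together. Within Jun-alone sites, TEAD was found at 6.83% of those with AP-1 (flanks 2.65%) and at 16.9% of those without it (flanks 2.82%). The sites with both numbered 405, or 1.98%, and in them the motif centres were a median of 25 bp apart. TEAD without AP-1, CRE or a variant was found at 2224 sites (10.8%), against 9.38% of trio sites and 5.68% of shared sites. Adding CRE and the variants to AP-1 accounted for 42.0% of Jun-alone sites, 67.5% of trio sites and 62.0% of shared sites. None of AP-1, CRE, the variants, TEAD and RUNX was found at 8929 Jun-alone sites (43.6%), against 20.2% of trio sites and 31.0% of shared sites. Median Jun fold enrichment was 7.39 with AP-1 and 7.39 without it.

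**Figure D2:**
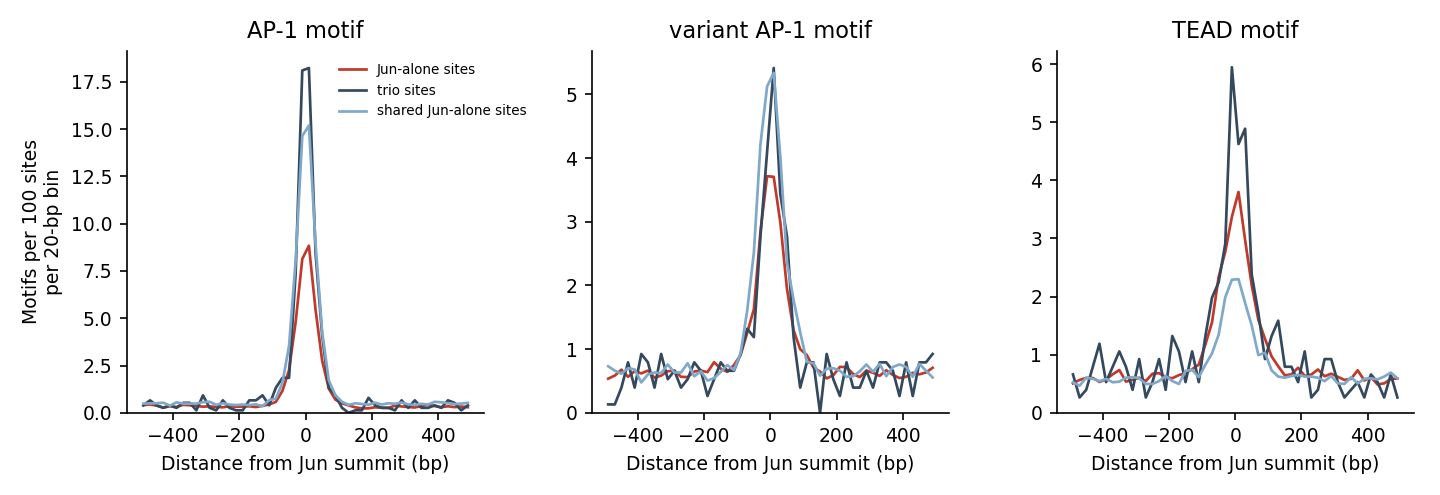
Number of motifs per 100 sites in 20-bp bins (vertical axes, different scales) against distance from the Jun summit in bp, for AP-1, the AP-1 variants and TEAD in the 3 classes. Each motif peaks at the summit, and in Jun-alone sites AP-1 reaches 8.83 and TEAD 3.80 motifs per 100 sites in the bin just after the summit.

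AP-1 was not most frequent at the strongest Jun-alone sites. By quintiles of Jun fold enrichment, its share was 24.4%, 30.9%, 32.7%, 32.8% and 24.3% from weakest to strongest. The interval of the strongest quintile (23.01 to 25.7) lay below that of the middle quintile (31.3 to 34.1). TEAD instead went from 11.4% in the weakest to 18.4% in the strongest quintile. Among 745 sites with a fold enrichment of at least 20, AP-1 was within 50 bp at 12.1%, and among 115 with at least 30 it was at 3.48% (Wilson interval 1.36 to 8.60). Anywhere in the peak, AP-1 was found at 149 of the 745 and 17 of the 115. The decline was also seen in the other classes. At a fold enrichment of at least 30, AP-1 was at 37.8% of 307 trio sites and 7.81% of 128 shared Jun-alone sites. TEAD stood at 20.9% of the 115 strongest Jun-alone sites, 24.1% of those trio sites and 28.1% of those shared sites.

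CTCF, the insulator protein, was the B2B target that most often shared a Jun-alone site. It also has the longest B2B list, with 61225 peaks. The H3K27ac list has 40316, Rad21 38888, H3K4me3 26112, pol II 25234 and Med1 20605. The part of list length in this ranking of targets was not tested. The lists of marks were compared on chromosomes 1 to 12, which all of them cover. There, 23.1% of 15267 Jun-alone sites overlapped a CTCF peak, against 31.8% of all distal B2B Jun peaks, 72.6% of 573 trio sites and 25.05% of 7398 shared Jun-alone sites. The difference from trio sites was -49.5 points (Newcombe interval -53.1 to -45.7). The difference from shared sites was -1.95 points (-3.15 to -0.766). That small difference did not survive equal Jun enrichment, since with the shared sites reweighted to the Jun fold enrichment of the members it was -0.264 (-1.47 to 0.928), and with all classes limited to a fold enrichment of 15 to 30 it was 4.10 (0.291 to 7.88).

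The CTCF overlap increased with Jun enrichment. It was 18.5% in the weakest and 37.2% in the strongest quintile of Jun-alone sites, and 62.9% at a fold enrichment of at least 30. At that fold enrichment it was also higher than over the whole class at shared Jun-alone sites (48.5%) and trio sites (79.3%). Peaks also widened, from a median of 236 bp over all Jun-alone sites to 507 bp at a fold enrichment of at least 30. A wider peak can overlap more, and the part of width in this increase was not tested. The CTCF core motif (12 positions, at most 1 mismatch) did not increase with Jun enrichment. Its share was 1.03% of all Jun-alone sites and 0.268% of those with a fold enrichment of at least 20. It was found within 50 bp of the summit at 3.20% of the 4749 Jun-alone sites with a CTCF peak and at 0.381% of the 15753 without. At the summits of the 4818 CTCF peaks that overlap Jun-alone sites, the core was present in 9.30%, against 44.4% of 45841 CTCF peaks away from every B2B Jun peak. Those CTCF peaks were also weaker, with a median CTCF fold enrichment of 6.77 against 9.95. AP-1 was present at 17.3% of Jun-alone sites with a CTCF peak and 32.4% of those without. The other classes had the same direction, with 32.8% and 51.6% at shared Jun-alone sites and 49.9% and 62.6% at trio sites. TEAD was present at 17.1% of Jun-alone sites with a CTCF peak and 13.1% of those without. Whether CTCF was bound directly at these sites was not tested.

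**Figure D3:**
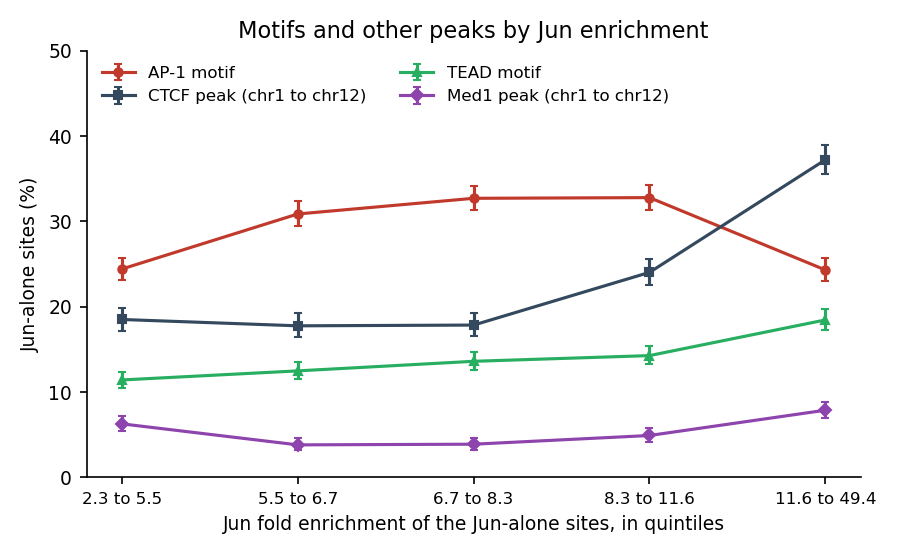
Share of Jun-alone sites (%, vertical axis) with an AP-1 or TEAD motif within 50 bp of the summit, or overlapping a B2B CTCF or Med1 peak, in quintiles of Jun fold enrichment (horizontal axis), with Wilson 95% intervals. CTCF overlap goes from 18.5% to 37.2% and AP-1 falls back to 24.3% in the strongest quintile.

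Rad21, a subunit of the cohesin ring, overlapped 4.59% of Jun-alone sites, against 7.77% of all distal B2B Jun peaks, 19.9% of trio sites and 7.14% of shared sites. The differences were -15.3 points from trio sites (-18.8 to -12.2) and -2.55 from shared sites (-3.23 to -1.88). Over the whole genome Rad21 lay at 16.1% of the Jun-alone sites with a CTCF peak and 1.32% of those without.

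Marks of active enhancers and of transcription were uncommon at Jun-alone sites. H3K27ac, the acetylation found on active enhancers and promoters, overlapped 5.33%, against 9.28% of all distal B2B Jun peaks, 15.2% of trio sites and 10.5% of shared sites. The differences were -9.85 points from trio sites (-13.0 to -7.12) and -5.21 from shared sites (-6.01 to -4.44). The first depended on how overlap was counted. With the Jun summit itself inside the H3K27ac peak, it was 0.154 points (-1.30 to 0.981). With the shortened Jun list it was -0.365 (-4.71 to 3.78). An H3K27ac peak lay within 1 kb of the summit at 11.6% of Jun-alone sites and 28.3% of trio sites. The median distance to the nearest one was 36.6 kb and 23.5 kb.

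Med1, a subunit of Mediator, overlapped 5.38% of Jun-alone sites, against 11.1% of all distal B2B Jun peaks, 29.1% of trio sites and 8.85% of shared sites. The differences were -23.8 points (-27.6 to -20.2) and -3.47 points (-4.22 to -2.74). Pol II overlapped 7.91%, against 15.2%, 45.2% and 10.8% in the same order. The differences were -37.3 points (-41.4 to -33.2) and -2.91 points (-3.75 to -2.10). H3K4me3, the mark of promoters, overlapped 2.72%, against 4.4%, 10.5% and 4.47%. The differences were -7.75 points (-10.5 to -5.48) and -1.75 points (-2.30 to -1.23). Within a Jun fold enrichment of 15 to 30 the intervals of the differences from shared sites included 0 for Med1 (-0.427, -2.61 to 1.68), pol II (-0.761, -3.90 to 2.33), H3K4me3 (-1.07, -2.78 to 0.549) and Rad21 (-0.656, -2.60 to 1.20). The differences from trio sites in that band had intervals without 0 for all 6 targets. Trio sites were still more enriched within the band, with a median Jun fold enrichment of 22.8 against 18.0 at Jun-alone sites. That comparison was therefore not at equal enrichment.

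Most Jun-alone sites overlapped no other target in B2B, as did most distal Jun peaks. On chromosomes 1 to 12, 10868 of 15267 (71.2%) overlapped none of the other 6, against 60.1% of all distal B2B Jun peaks, 65.1% of shared Jun-alone sites and 17.5% of trio sites. A further 2572 (16.8%) overlapped exactly 1, which was CTCF at 1933. H3K27ac and Med1 were found together at 430 sites (2.82%), and CTCF and Rad21 at 561 (3.67%). Med1 and CTCF went together, with CTCF at 77.0% of the 822 sites with Med1 and 20.03% of the others. This was not particular to Jun-alone sites. Med1 was at 23.6% of shared Jun-alone sites with CTCF and 3.91% of those without. For trio sites the shares were 38.7% and 3.82%, and for Jun-alone sites 18.0% and 1.61%. All 6 targets met at 9 Jun-alone sites.

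In A549, where the rule allows no Jun-family peak within 1 kb, the same regions were almost without marks. Since the sites were chosen for a Jun peak in B2B and none near it in A549, the direction of these differences is favoured by the choice, and they are given as a description. A549 H3K27ac overlapped 0.910% of Jun-alone sites, against 6.77% of all distal B2B Jun peaks, and the B2B share was 4.42 points higher. A549 Med1 overlapped 0.249%, against 7%, with a difference of 5.14 points. A549 pol II overlapped 1.60%, against 13.8%, with a difference of 6.31 points. A549 H3K4me3 overlapped 1.32%, against 6.39%, with a difference of 1.40 points. The shared Jun-alone sites carried these A549 marks at 13.5%, 11.9%, 26.5% and 12.3%. The A549 and B2B lists were called separately and differ in length.

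**Figure D4:**
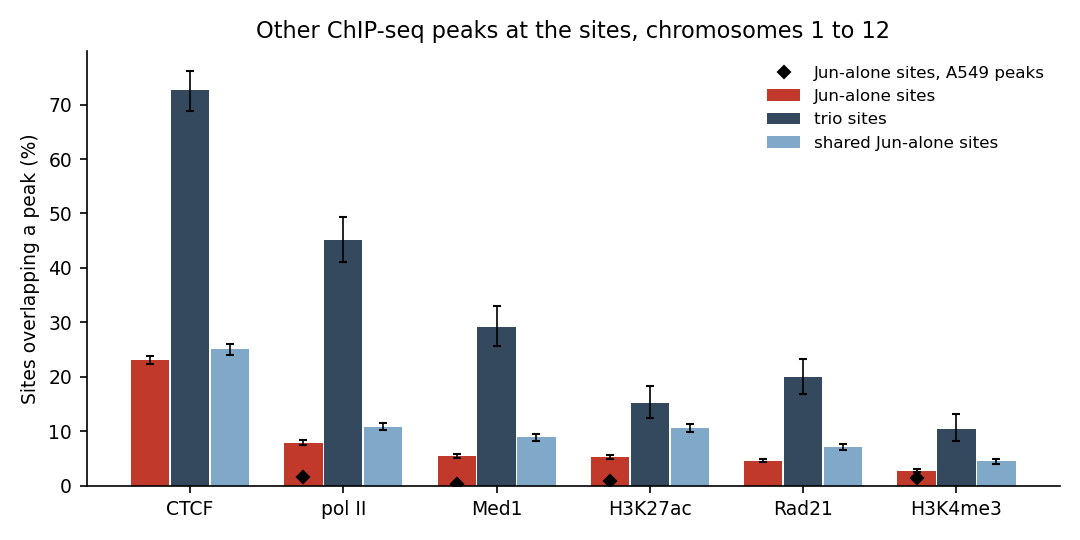
Share of sites on chromosomes 1 to 12 (%, vertical axis) that overlap a B2B peak of each target in Jun-alone, trio and shared Jun-alone sites, with Wilson 95% intervals, and the share of Jun-alone sites that overlap an A549 peak as black diamonds. Trio sites stand highest for each B2B target, and the A549 values at Jun-alone sites are between 0.249% and 1.60%.

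The strongest single sites show this range. The most enriched Jun-alone site, at chr4:114087361-114088155 (fold enrichment 49.4), overlapped no other B2B target. The next, at chr5:83924997-83925890 (48.5) and chr15:31471765-31472248 (47.6, intergenic, 78.5 kb from a start of the transcription factor gene KLF13), overlapped pol II and CTCF. The site at chr6:21946133-21946927 (46.4), in an intron of the long noncoding RNA gene CASC15, overlapped Med1, pol II and CTCF. The site at chr5:78747657-78748165 (46.3), in an intron of LHFPL2, overlapped pol II only. Sites at chr14:53640673-53641172 (45.9, in an intron of a noncoding gene, with BMP4 as the nearest coding start at 311 kb) and chr1:230170987-230172151 (44.5, in an intron of the glycosyltransferase gene GALNT2) overlapped H3K27ac and CTCF. The last 3 of the 10 were at chr5:146560463-146561079 (43.1, CTCF), at chr5:32692008-32692820 (42.9, in NPR3, H3K27ac) and at chr1:25912089-25912814 (42.6, 5.32 kb from a start of the microtubule regulator STMN1, CTCF). None of these 10 had AP-1 within 50 bp of the summit, 3 had it elsewhere in the peak, and 2 had TEAD.

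Sites with enhancer marks were led by chr12:106106065-106107143 (Jun fold enrichment 38.6), in an intron of the kinase gene NUAK1. It overlapped all 6 other B2B targets and, in A549, Med1 and pol II. The next with H3K27ac and Med1 were at chr10:70664673-70665123 (37.0), in an intron of PALD1 and 7.59 kb from a start of the procollagen protease gene ADAMTS14, and at chr2:23430116-23430763 (36.7), in an intron of KLHL29. Both also overlapped pol II and CTCF. With CTCF and Rad21, the NUAK1 site was followed by chr4:123986169-123987094 (38.3, intergenic) and chr5:125410793-125411593 (37.5, in an intron of the noncoding gene LINC02240), which lay 587 kb and 662 kb from the nearest coding starts. Without any other B2B peak, the site near ARSJ was followed by chr5:93162878-93163359 (41.1, intergenic) and chr9:109698985-109699459 (40.7, in an intron of PALM2AKAP2).

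By annotation, 65.0% of Jun-alone summits lay in introns, 31.0% between genes and 3.93% in exons. The same shares were 64.5%, 30.3% and 5.28% for trio sites and 63.2%, 32.4% and 4.46% for shared sites. The median distance to the nearest start was 12.9 kb, against 15.01 kb and 10.5 kb. As a share of distal B2B Jun peaks, Jun-alone sites ranged from 30.7% on chromosome Y (35 of 114) and 42.0% on chromosome 19 to 60.8% on chromosome 4. They were spread over 2483 bins of 1 Mb outside chromosome 8. The fullest, chr14:54000001-55000000, held 41 of them among 50 distal Jun peaks and contains SAMD4A. In chr21:27000001-28000000, which overlaps no protein-coding gene, all 21 distal Jun peaks were Jun-alone sites. On chromosome 2, the 1 Mb from 133000001 held 30 of 36, over NCKAP5.

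Near genes, 9531 of 20033 protein-coding genes (47.6%) had at least 1 Jun-alone site within 50 kb of an annotated start, and the median gene had 0. The genes with most (outside chromosome 8) were long genes with many annotated starts, at a median of 19 against 6 for all coding genes, which widens the window. SRGAP2, a regulator of membrane shape, led with 23 Jun-alone sites among 32 distal Jun peaks. SAMD4A, an RNA-binding repressor, had 22 of 26. LPP, a focal adhesion protein, had 21 of 34, and FOXP1, a forkhead repressor, had 21 of 32. FRMD4A, a polarity scaffold, had 20 of 26. PALLD (palladin), which organises actin bundles, had 18 of 36. DST (dystonin), a plakin that ties intermediate filaments to hemidesmosomes, had 17 of 42, the lowest proportion among the first 15. ZNF462 had 17 of 21, RBMS1 17 of 23, the splicing factor gene RBFOX2 16 of 18 and STARD13 16 of 24. KCNMA1 had 15 of 26, ZNF385B 15 of 17 and MAST4 15 of 21. BACH1, a leucine zipper repressor that pairs with small Maf proteins, had 15 of 20. These 15 genes shared no Jun-alone site with each other.

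Adhesion and matrix genes often had Jun-alone sites nearby, in about the proportion found among distal Jun peaks at large. All 19 extracellular matrix genes (100%) had at least 1 within 50 kb, with a median of 4. They were led by COL5A2 and the fibrillin gene FBN1 with 12 each and the collagen cross-linking enzyme gene LOXL2 with 10, and all 12 distal Jun peaks near FBN1 were Jun-alone sites. Of the epithelial-mesenchymal transition list, 14 of 15 had at least 1 (93.3%), led by N-cadherin (CDH2), where all 5 distal Jun peaks were Jun-alone sites, and ZEB2 (5 of 10), with 3 each near SPARC, FN1 and SNAI2. Of the integrins, 13 of 14 had at least 1 (92.9%), led by ITGB3 (7 of 8), ITGB8 (5 of 7) and ITGB5 (4 of 10). These lists also have more annotated starts per gene than the median gene, at 13, 9 and 11.5 against 6, and the part of this in the counts was not tested. Summed over the genes of a list, Jun-alone sites made up 56.9% of the distal Jun peaks near matrix genes, 55.8% near epithelial-mesenchymal transition genes and 36 of 72 near integrins, against 52.8% of distal Jun peaks overall. These gene counts therefore describe where distal Jun peaks lay and are not particular to Jun-alone sites.

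Signalling lists followed, with Jun-alone sites a smaller part of the distal Jun peaks nearby (40.7% to 44.8% in the YAP-TEAD, TGF-beta, growth factor and actin lists, and 40.7% for cytokines) than the 52.8% overall. At least 1 Jun-alone site was near 15 of 17 TGF-beta pathway genes (88.2%), led by the coreceptor gene TGFBR3 (9), SMAD3 (7) and the ligand gene TGFB2 (6), and near 13 of 16 YAP-TEAD pathway genes (81.3%), led by CRIM1 (11 of 32 distal Jun peaks) and TEAD1 (10 of 19), with 5 each near the kinase gene LATS2 and AMOTL2. Actin and contractile genes had 14 of 18 (77.8%), led by PALLD and the myosin gene MYH9 (8), with 7 near CALD1. Growth factor genes had 13 of 17 (76.5%), led by PDGFC (12), IGF1R (10) and EGFR (10). Basal airway genes had 10 of 15 (66.7%), led by DST and the laminin chain gene LAMA3 (10), with none near KRT5, KRT15 or NGFR. Cytokines had 10 of 15 (66.7%), led by CXCL1 and CCL2 with 4 each and IL1B with 3, and the strongest near CXCL1 had a Jun fold enrichment of 31.4.

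The AP-1 genes themselves had 8 of 14 (57.1%). JUN had 5 of 6 distal Jun peaks and ATF3 5 of 9, BATF3 and FOSL2 had 4 of 6 each, and ATF3 and BATF3 shared 1. The genes without a Jun-alone site had few distal Jun peaks nearby. They were BATF and MAFK (0 of 3 each), FOS and FOSL1 (0 of 2 each) and FOSB (0 of 1). JUNB had no distal Jun peak within 50 kb, so it could have no Jun-alone site. By gene count, lists of other cell types lay near the background of 47.6% or below, with neurons at 6 of 12, hepatocytes at 6 of 12, blood cells at 5 of 12 (41.7%) and alveolar and secretory airway cells at 6 of 16 (37.5%). The most among these were 4 near PTPRC and 3 near SNAP25, and no alveolar or secretory gene had more than 2. Of the few distal Jun peaks there, Jun-alone sites made up 8 of 13 near neuronal genes and 8 of 13 near blood cell genes. They made up 8 of 19 near hepatocyte genes and 10 of 23 near alveolar and secretory genes.

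**Figure D5:**
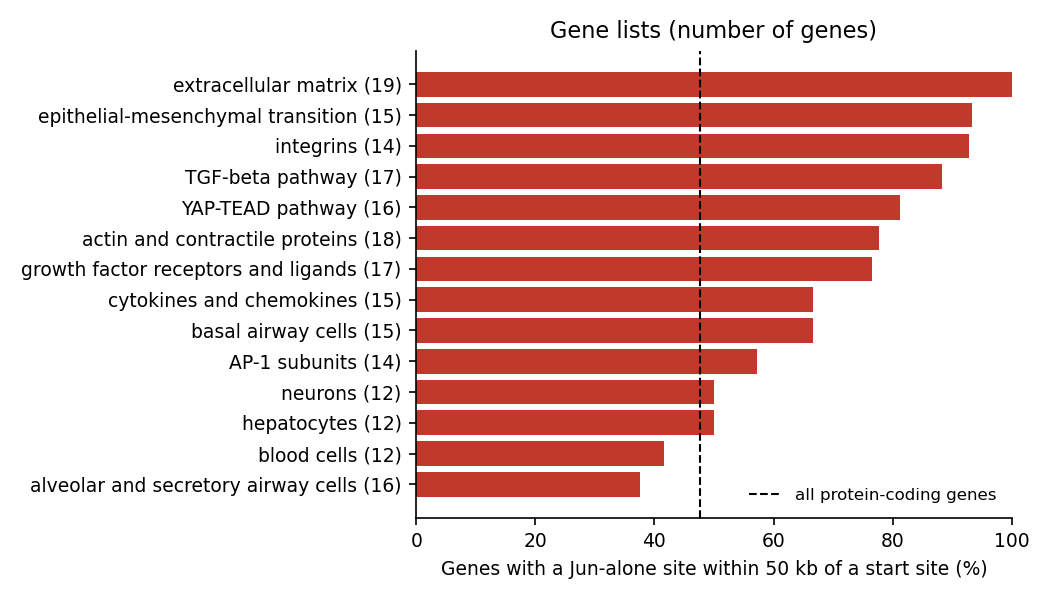
Share of genes in each list (%, horizontal axis) with at least 1 Jun-alone site within 50 kb of an annotated start, with the number of genes in brackets and the share over all protein-coding genes (47.6%) as a dashed line. Extracellular matrix (100%), epithelial-mesenchymal transition (93.3%) and integrin genes (92.9%) stand highest and alveolar and secretory airway genes (37.5%) lowest.

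Both lines were checked against H3K4me3 within 1 kb of starts of cell type markers. In B2B the mark was present at 5 of 6 general epithelial markers (not KRT19) and 5 of 6 mesenchymal markers (not TAGLN), at 2 of 8 airway basal markers (KRT17 and ITGB4), with TP63, KRT5 and KRT14 among those without it, and at 0 of 4 blood and 0 of 4 hepatocyte markers. NKX2-1 was the only alveolar or secretory marker of 6 with it, and SYT1 the only neuronal marker of 4. In A549 the mark was at 5 of 6 general epithelial, 4 of 6 mesenchymal and 4 of 8 airway basal markers, including TP63 and NGFR. It was also at 3 of 6 alveolar or secretory, 4 of 4 neuronal, 0 of 4 blood and 0 of 4 hepatocyte markers. Fewer airway basal markers thus had the mark in B2B than in A549, but so did fewer neuronal and fewer alveolar or secretory markers. Only the mesenchymal list went the other way. The A549 H3K4me3 list is longer, with 32801 peaks against 26112 in B2B. The share of all coding genes with the mark was not counted, and the part of list length was not tested.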

How the data were processed

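ChIP-seq peaks of A549 and B2B cells were analysed as deposited. According to the study's methods and the submitters' processing notes, the authors aligned reads to hg38 (Bowtie2 2.4.4). Each list is a MACS2 2.2.7.1 call on the pooled libraries of a group, after an in-house duplicate filter and CPM scaling, for which SAMtools 1.13 is named. The control and options of the ChIP-seq calls are not given in the sources used here. The deposited lists give each peak's fold enrichment (a ratio over local background) and, as deposited by the authors, -log10 p-values and q-values, with the lowest -log10 q just above 2. Total read counts are unknown. Merging leaves no replicate error, and a weak site below the caller's threshold in a shorter list is read as absent.

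The A549 H3K27ac, Med1 and pol II lists and the B2B Med1 list hold no peaks on the last chromosomes, so marks were compared on chromosomes 1 to 12. Start sites, exons and genes were from GENCODE 44 and sequence from hg38. An overlap was at least 1 bp. Shares have Wilson and differences Newcombe 95% intervals, tested on simulated data. Motifs were counted on both strands within 50 bp of the summit, and in equal flanks 2 kb away. Sites were named by Jun fold enrichment (the 10 highest, and the 3 highest with H3K27ac and Med1, with CTCF and Rad21, and with no other peak), genes by the number of Jun-alone sites within 50 kb (15 genes, and the leading genes of each list), and 7-base words by the summit to flank ratio. Chromosome 8 was left out of named sites and of the 15 genes, and some leading genes of the lists are not reported here. The strong-site cuts at a fold enrichment of 20 and 30, and the motif panel other than AP-1, were chosen after values were seen. The members, gene lists and comparisons were chosen with earlier results of these data known. Alternatives varied peak thresholds, distances, overlap and motif windows, list length and Jun enrichment. Python 3.11.15, pandas 2.3.3, SciPy 1.17.1 and pysam 0.24.0 were used.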

Additional observations from a re-analysis of the deposited data

Results flagged for a closer look

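The B2B Jun list also holds 103 peaks outside chromosomes 1 to 22, X and Y, on sequences that none of the comparisons used. That is above the 3 that a count of 0 allows, and 2 of them are mitochondrial.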

How the results depend on the processing

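No paired analysis was possible because the replicates were merged before peaks were called. Of 213 values recomputed for 20 results, 202 kept their direction and their side of the threshold. The reweighting by Jun enrichment gave no value for the 7 comparisons with trio sites, because some deciles of the Jun-alone sites' fold enrichment hold no trio site. In its place, a band of fold enrichment from 15 to 30, chosen after seeing the data, kept 1909 Jun-alone, 414 trio and 1459 shared Jun-alone sites. Their median fold enrichments in the band were 18.0, 22.8 and 18.4, so it did not fully match trio sites. Leaving out sites with a CTCF peak was also added after seeing the data, for AP-1.

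With the B2B Jun list shortened to the length of the JunB list, the Jun-alone sites numbered 964. The difference from trio sites in H3K27ac became -0.365 points, and the differences from shared Jun-alone sites became -2.44 points for pol II and 6.39 points for CTCF, the last with the opposite sign. With the summit inside the mark, the H3K27ac difference from trio sites was 0.154 points. Reweighting made the CTCF difference from shared sites -0.264 points. In the band, the differences from shared sites were -0.427 points for Med1, -0.761 for pol II, -1.07 for H3K4me3, -0.656 for Rad21 and 4.10 for CTCF, again with the opposite sign. The causes were not tested. Total read counts are unknown, so no limit set by depth is given. The values for B2B minus A549 are among those counted, and their direction is favoured by the choice of members.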
